A study of Mus musculus with 32 samples.

Results

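The comparison described here set right cortex taken 24 h after blood flow returned against right cortex taken 2 h after it, in a mouse model of stroke. It used 8 of the 32 arrays of the series, the 4 labelled cortex with 24 h of reperfusion and the 4 labelled cortex with 2 h, chosen by their sample labels and array codes alone. A suture closed the middle cerebral artery for 2 h in both groups and was then withdrawn. RNA came from the infarcted cortex and was measured on bead arrays of the MouseRef-8 V2 type (Illumina). By the genotype label every mouse, sham animals included, was Gpx1-/- on a C57/Bl6 background and aged 8 to 10 weeks, and the growth protocol names male mice. That protocol also says that wild-type mice were employed, which every other label naming a genotype contradicts. No wild-type array was analysed here, so nothing below bears on what the deletion does. Sham animals, which had anaesthesia and a neck incision, and cortex at 8 h are given as levels only. The labels do not say that the 4 samples of a group came from separate animals, so p-values measure the spread between samples. That spread was pooled over all 32 arrays in 8 groups, not only over the 8 arrays compared.

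Early after an arrest of blood flow, neurons and glia switch on immediate early genes, whose products are transcription factors and synaptic regulators that need no new protein synthesis to be made. Over the following day, microglia and astrocytes change state, blood vessels become activated, and neutrophils and then monocytes enter the tissue. Transcripts of these later programmes encode chemokines, protease inhibitors, intermediate filaments, complement, and receptors and enzymes of phagocytes. A comparison of 24 h with 2 h therefore asks which early transcripts had subsided and which late ones had built up.

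On the 8 arrays the median raw signal lay between 75.7 and 92.4 and detection calls between 10701 and 11463 of 25697 probes, and 9475 genes were tested. Levels are log2 signals after normalization, differences are 24 h minus 2 h on that scale with the standard error (SE) from limma, n is 4 arrays per group, and adjusted p is limma's after Benjamini-Hochberg adjustment over all genes tested, with 0.05 as the threshold for a call. One array stood apart. On the first principal component of the cortex arrays, which held 38.64% of the variance, 24 h replicate 1 had a score of -6.69, where the other 24 h arrays had 16.71 to 37.94 and the 2 h arrays -10.46 to -3.72. Across genes, Pearson's r between pairs of arrays ran from 0.9867 to 0.9914 at 2 h and 0.9564 to 0.9853 at 24 h. Results are therefore given with and without that array where it moved them.

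Gpx1, the gene deleted according to the labels, encodes an enzyme that reduces hydrogen peroxide with glutathione. Its 1 probe read 9.22, 8.98, 9.26 and 9.36 on the 2 h arrays and 8.90, 9.68, 9.25 and 9.35 on the 24 h arrays, and it was detected on all 8. The groups overlapped and the difference was 0.09 ± 0.19 (adjusted p = 0.78). The group means stood at the 87.7th and 88.4th percentile of all probes. Whether the probe lies inside the deleted part of the gene is not known from the files, so these levels check neither the deletion nor the labels.

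Between 2 h and 24 h limma called 2521 of 9475 genes, 26.6% of those tested, and the calls were split almost evenly. At 24 h 1248 genes were higher (13.2%) and 1273 lower (13.4%), and the median difference of all genes was 0.003. By at least 2-fold, 102 genes were higher (1.08%) and 64 lower (0.675%), and by at least 4-fold 15 and 3. Leaving out 24 h replicate 1 gave 198 and 104 genes by at least 2-fold. With the 8 arrays fitted alone, 779 genes were called higher and 949 lower. Over the 102 higher genes the median level was 5.96 to 6.12 on the sham arrays, 6.16 to 6.35 at 2 h, 6.25 to 7.19 at 8 h, and 6.48, 8.40, 7.77 and 8.16 at 24 h. Over the 64 lower genes it was 7.62 to 8.08 in sham, 7.91 to 8.21 at 2 h, 7.40 to 7.72 at 8 h, and 7.06, 6.87, 6.79 and 6.24 at 24 h. By these medians the higher genes stood near their sham level at 2 h, and the lower genes ended below theirs. Among the higher genes 24 h replicate 1 lay close to the 2 h arrays. Of the 102, 37 were detected on 0 arrays at 2 h, and of the 64, 9 on 0 arrays at 24 h. Medians this near background can hide changes from sham. Some members, such as Timp1 and Ccl12, already stood above every sham array at 2 h.

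Immediate early genes were lower at 24 h. Of 26 tested, 0 rose, 12 fell (46.2%) and 14 did not pass, with a median difference of -0.76. Arrays were also matched by replicate number, which is not shown to pair samples, here and for the lists below. The 4 pairs of same-numbered arrays gave medians of -1.13, -0.56, -0.92 and -0.65. All 4 were below 0, although the count of falls was 7 without 24 h replicate 4. Fosb, a Fos-family transcription factor induced by neuronal activity, had the largest fall of all genes tested that passed. It read 10.21, 9.56, 10.33 and 9.52 at 2 h and 6.56, 6.41, 6.30 and 5.95 at 24 h, a 12.1-fold fall (-3.60 ± 0.45, adjusted p = 4.24e-06). Every 24 h array lay below every sham array, which read 7.26 to 7.73. Npas4, an activity-dependent transcription factor of neurons, read 8.87, 9.67, 11.80 and 6.25 at 2 h and 7.68, 6.68, 7.46 and 5.32 at 24 h, a 5.15-fold fall (-2.36 ± 0.78, adjusted p = 0.0246). Its groups overlapped through 2 h replicate 4, and the call was lost without 2 h replicates 2 or 3 or 24 h replicates 2 or 4 (adjusted p 0.0502 to 0.146).

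Fos, which pairs with Jun proteins in the AP-1 transcription factor, read 11.24, 10.96, 12.05 and 10.02 at 2 h against 8.89, 10.02, 9.77 and 8.78 at 24 h. Its highest 24 h array just touched its lowest 2 h array, and the fall was 3.26-fold (-1.70 ± 0.58, adjusted p = 0.0302). That call was lost without any 1 of 2 h replicates 1, 2 and 3 and 24 h replicates 1 and 4 (adjusted p 0.0529 to 0.111). Junb, another AP-1 subunit, fell from 10.29, 10.26, 11.15 and 9.46 to 8.98, 9.45, 9.32 and 8.72 (-1.17 ± 0.32, adjusted p = 0.00818), close to its sham range of 8.86 to 9.37. Atf3, a stress-induced transcription factor not detected on sham arrays, was not called (-0.75 ± 0.72, adjusted p = 0.481). It read 7.40, 7.51, 7.20 and 6.09 at 2 h and 4.70, 7.74, 6.27 and 6.50 at 24 h, where replicate 1 had the sham level and the other arrays did not. The probe for Nr4a1, a nuclear receptor of the same early class, was detected on 0 of 32 arrays and was not tested.

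Arc, Bdnf and Nptx2, which act at synapses or on neuron growth, were among the falls. Arc, which removes AMPA receptors from synapses, read 10.26, 10.50, 10.88 and 9.49 at 2 h and 9.36, 7.90, 9.23 and 7.47 at 24 h, a 3.47-fold fall (-1.79 ± 0.51, adjusted p = 0.0107, and 0.0576 without 24 h replicate 4). Its sham arrays read 8.96 to 10.15, above 2 of the 24 h arrays and overlapping the other 2. Bdnf, a growth factor for neurons, read 9.94, 9.72, 9.72 and 9.29 at 2 h and 8.37, 8.15, 8.90 and 7.66 at 24 h (-1.40 ± 0.38, adjusted p = 0.00718), and its sham arrays read 9.27 to 9.57. A second Bdnf probe gave -1.07 (adjusted p = 0.0363). Nptx2, a secreted pentraxin that clusters AMPA receptors, read 11.65, 10.96, 10.87 and 10.77 at 2 h and 8.17, 9.92, 9.09 and 8.59 at 24 h, a 4.34-fold fall (-2.12 ± 0.43, adjusted p = 0.000694). All 4 of its 24 h arrays lay below the sham range of 10.24 to 10.29. For Arc, Bdnf and Nptx2 the 8 h arrays spread widely, with replicates 2 and 4 low and replicates 1 and 3 high. Nr4a2, a nuclear receptor of the early response that also marks deep-layer cortical neurons, fell by 0.89 ± 0.23 (adjusted p = 0.00494), although its 24 h replicate 1 read 7.95, within the 2 h range.

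**Figure D1:**
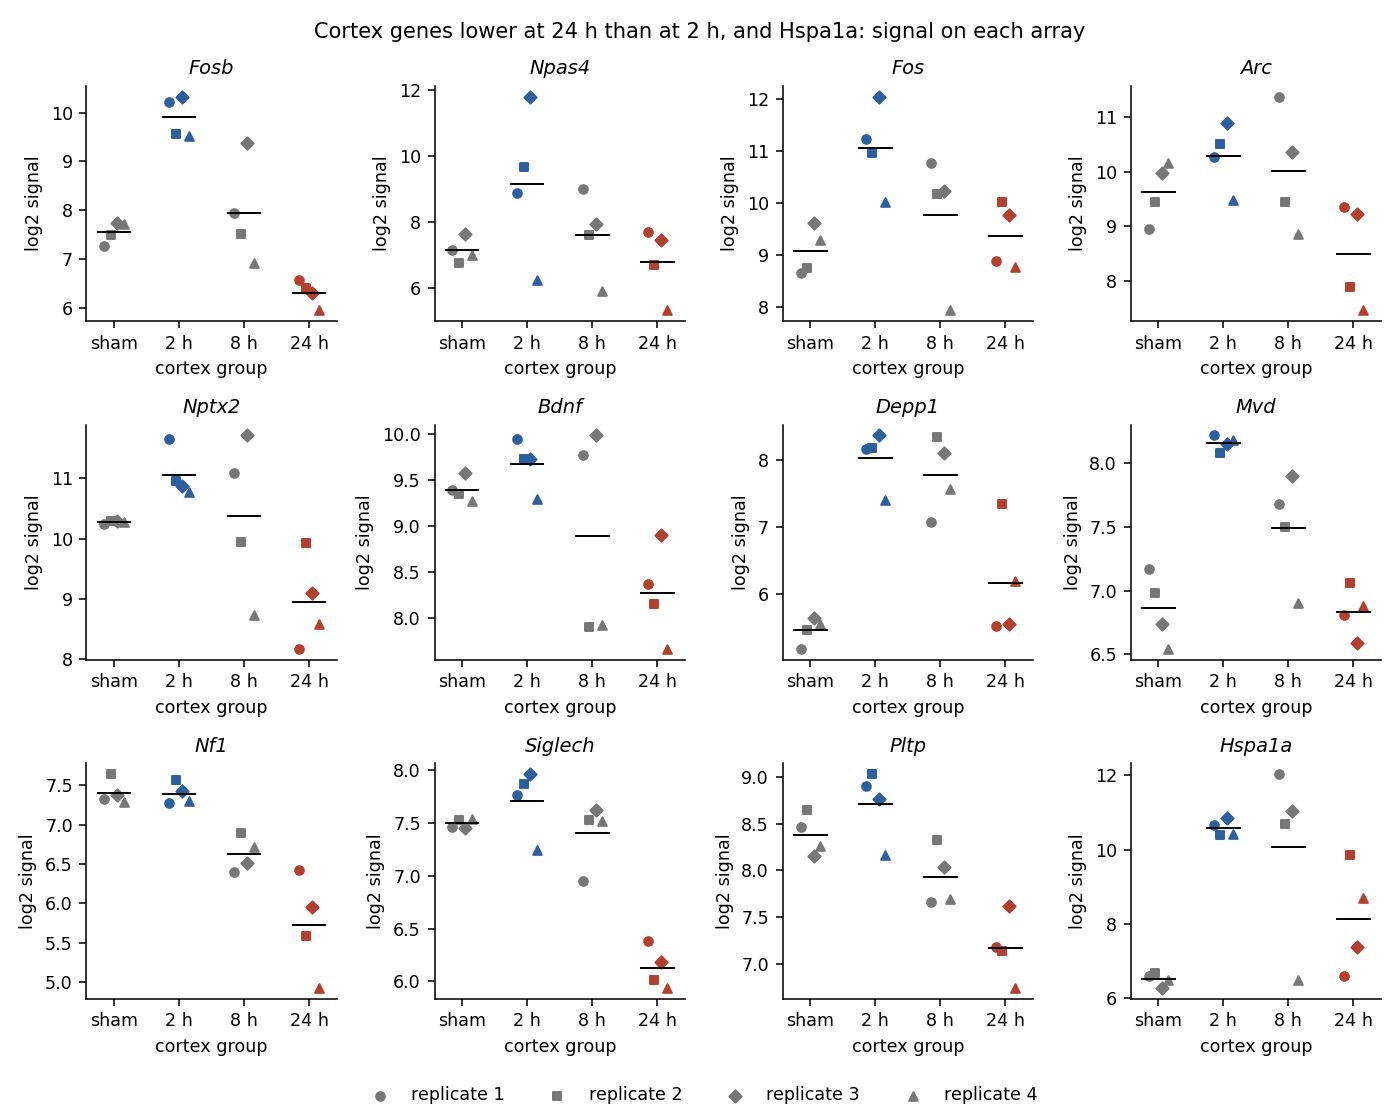
Log2 signal on each cortex array (vertical axis) of 12 genes by group (horizontal axis: sham and 2, 8 and 24 h of reperfusion), with the replicate number as the marker shape, 2 h in blue, 24 h in red, the other groups in grey and bars at group means. Fosb, Nptx2, Nf1 and Siglech end below sham at 24 h, Mvd returns to its sham range, and Hspa1a, which was not called, spreads from 6.60 to 9.86 at 24 h.

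The promoters of Npas4 and Fos are shown because they carry the shared core of the cAMP response element (CRE), the DNA sequence bound by CREB, which drives many immediate early genes. Each runs from 250 bases before to 50 bases after the RefSeq transcription start on GRCm38.p6, 5′ to 3′ on the strand of the gene, and capitals mark TGACGT on either strand. In Npas4 the matches start 180 and 169 bases before the start, and in Fos the match starts 66 bases before it.
Npas4, chr19:4989922-4990221, minus strand: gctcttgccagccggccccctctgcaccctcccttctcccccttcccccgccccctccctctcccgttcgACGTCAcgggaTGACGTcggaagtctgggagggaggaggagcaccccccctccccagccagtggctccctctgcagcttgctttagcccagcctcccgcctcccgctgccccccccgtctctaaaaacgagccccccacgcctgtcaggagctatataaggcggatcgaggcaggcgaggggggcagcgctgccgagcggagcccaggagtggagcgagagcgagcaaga
Fos, chr12:85473640-85473939, plus strand: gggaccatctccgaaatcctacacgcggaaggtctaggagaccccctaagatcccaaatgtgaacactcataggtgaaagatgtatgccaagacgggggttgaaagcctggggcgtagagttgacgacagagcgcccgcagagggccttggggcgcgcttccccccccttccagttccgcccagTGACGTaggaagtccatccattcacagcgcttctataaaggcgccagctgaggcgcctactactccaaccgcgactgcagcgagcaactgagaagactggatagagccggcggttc
Among immediate early genes with 1 promoter in the RefSeq table, 44.4% of the 9 called and 35.0% of the 20 tested held this core, against 12.7% of all genes tested with 1 promoter (5862 of the 9475). The whole palindrome TGACGTCA, which contains the core, was in 0 of the 9 and in 3.43% of all. The core was chosen after values were seen, and another motif searched, the NF-kB site, was as frequent among the 9. That site was in 4 of the 9 and 5 of the 20, against 9.81% of all genes tested with 1 promoter. Among genes changed by at least 2-fold, the core was in 7 of 35 promoters of lower genes and 4 of 59 of higher genes. These are counts of letters in a window and show no binding.

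Among 23 heat shock genes, chaperones and their partners, 1 rose (4.35%) and 3 fell, against 13.2% and 13.4% of all genes, and 19 were not called, while 2 rose without 24 h replicate 1 and 5 fell without 24 h replicate 2. Hspa1a, the inducible 70-kDa chaperone, read 10.65, 10.39, 10.86 and 10.42 at 2 h and 6.60, 9.86, 7.37 and 8.69 at 24 h. Its groups did not overlap, but the 24 h arrays ran from the sham level to nearly the 2 h level. In the fit of all 32 arrays the difference of -2.45 ± 0.97 did not pass (adjusted p = 0.0591). It passed without 24 h replicate 2 (0.034) and with the 8 arrays fitted alone (0.0202). The 8 h arrays, which enter the pooled spread, read 6.48 to 12.03. Dnajb5, a cochaperone, fell to a level detected on 0 of 4 arrays, at least 1.93-fold lower (adjusted p = 8.1e-05). Hspa4l, a relative of the 70-kDa chaperones, fell by 0.56 ± 0.15 (adjusted p = 0.00586), and Hsp90ab1 was the third member to fall while Dnajb4 rose. The calls of Hsp90ab1 and Dnajb4 were each lost without any 1 of 2 and 4 arrays, 24 h replicate 4 and 2 h replicate 2 among them. Of 21 genes of the unfolded protein and integrated stress responses, 2 rose (9.52%), 4 fell (19.0%) and 15 did not pass. The rises numbered 4 without 24 h replicate 1 and 0 or 1 without any 1 of 2 h replicates 1, 2 and 3 and 24 h replicates 2, 3 and 4. Hsp90b1 and Pdia6, a chaperone and a disulfide isomerase of the endoplasmic reticulum, fell from 11.61 to 11.81 down to 10.75 to 11.01, and from 7.57 to 7.87 down to 6.66 to 6.98. Both groups stood apart in each gene (-0.77 ± 0.11, adjusted p = 2.98e-05, and -0.90 ± 0.12, adjusted p = 9.18e-06), and sham arrays lay near the 2 h level.

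Genes of cholesterol synthesis were lower at 24 h. Of 20 tested, 0 rose, 10 fell and 10 did not pass, with a median of -0.39 and same-numbered pairs at -0.69, -0.30, -0.66 and -0.13. Mvd, an enzyme of the mevalonate pathway, read 8.22, 8.08, 8.15 and 8.18 at 2 h and 6.81, 7.06, 6.59 and 6.88 at 24 h, a 2.50-fold fall (-1.32 ± 0.16, adjusted p = 2.96e-06). The 24 h arrays lay within the sham range of 6.54 to 7.17. Msmo1, which removes methyl groups from sterols, read 11.27, 10.97, 11.04 and 11.06 at 2 h and 9.84, 9.99, 10.07 and 10.26 at 24 h (-1.04 ± 0.17, adjusted p = 6.57e-05), with 3 of the 24 h arrays below every sham array and the highest level with the lowest sham array, 10.25. In striatum the differences were -0.44 (adjusted p = 0.067) for Mvd and -0.22 (0.39) for Msmo1, and of the 20 genes 0 rose and 1 fell there. The difference between regions passed for 0 of the 20.

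Among 22 genes induced by glucocorticoids or FOXO factors, 3 rose (13.6%), 5 fell (22.7%) and 14 did not pass, so the list had no common direction. Depp1, a FOXO target that had the largest fall of the list, read 8.17, 8.18, 8.37 and 7.40 at 2 h and 5.53, 7.35, 5.55 and 6.20 at 24 h (-1.87 ± 0.33, adjusted p = 0.000173). The groups only just failed to meet, and replicates 1 and 3 at 24 h lay at the sham level. Lcn2, which is also a reactive astrocyte and neutrophil gene, was the largest rise. The count of rises was 5 without 24 h replicate 1. Genes of hypoxia and of glycolysis gave 2 rises and 5 falls in 25, with 18 not called, and 1 rise without any 1 of 2 h replicate 1 and 24 h replicates 2 and 4. Ndrg1, a stress-responsive gene of oligodendrocytes and other cells, fell from 9.79 to 9.88 at 2 h to 8.67 to 9.24 at 24 h (-0.96 ± 0.13, adjusted p = 8.58e-06). P4ha1, a collagen prolyl hydroxylase, was detected on 1 of 4 arrays at 24 h, and its fall of 1.06 ± 0.22 (adjusted p = 0.000925) rests in part on background. Pparg, a nuclear receptor of lipid metabolism and inflammation, fell at least 2.21-fold, from 6.60 to 7.33 down to a level detected on 0 arrays (adjusted p = 2.61e-05).

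Nf1 and Kcnk3 fell from a 2 h level like that of sham. Nf1, a brake on Ras signalling, read 7.28 to 7.56 at 2 h, within its sham range of 7.29 to 7.64 but for 1 array, and 6.42, 5.59, 5.95 and 4.93 at 24 h (-1.67 ± 0.20, adjusted p = 2.79e-06). It was detected on 1 array at 24 h, so the 3.18-fold fall rests in part on background. Kcnk3, a background potassium channel that sets the resting potential, fell at least 1.85-fold to a level detected on 0 arrays (adjusted p = 2.61e-05). Pltp, a phospholipid transfer protein, read 8.90, 9.03, 8.76 and 8.16 at 2 h and 7.18, 7.14, 7.62 and 6.74 at 24 h (-1.54 ± 0.19, adjusted p = 2.79e-06), over sham arrays of 8.15 to 8.65, and a second probe gave -1.33 (3.96e-05). Tmcc3, a membrane protein of the endoplasmic reticulum, behaved otherwise, with 7.11 to 7.80 at 2 h, 5.67 to 5.98 in sham and 5.57 to 6.40 at 24 h (-1.64 ± 0.22, adjusted p = 9.14e-06).

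Markers of resting microglia split. Of 23 tested, 4 rose, 8 fell (34.8%) and 11 did not pass, with a median of -0.11. Siglech, a microglial lectin, read 7.76, 7.87, 7.96 and 7.24 at 2 h and 6.38, 6.01, 6.18 and 5.94 at 24 h, a 2.99-fold fall (-1.58 ± 0.17, adjusted p = 6.79e-07). Its second probe gave -0.66 (adjusted p = 0.00368), and sham arrays read 7.45 to 7.54. Crybb1, a microglia-enriched crystallin, fell at least 1.34-fold to a level detected on 0 arrays (adjusted p = 1.88e-06), and Csf1r, the receptor microglia need to survive, fell from at least 8.34 on every 2 h array to 7.67 to 7.91 (-0.80, adjusted p = 0.000103). P2ry12, the purine receptor of resting microglia, read 6.36, 6.17, 6.67 and 6.62 at 2 h and 6.39, 5.17, 5.90 and 5.66 at 24 h. Its difference of -0.67 ± 0.26 missed the threshold (adjusted p = 0.0501) and passed without 24 h replicate 1 (0.0121) or 2 h replicate 2 (0.0475). Cx3cr1, the fractalkine receptor, had the opposite sign and was not called (0.34 ± 0.21, adjusted p = 0.249). The members that rose were P2ry6, a receptor that triggers phagocytosis, and the complement subunits C1qa, C1qb and C1qc, and that count was 1 or 2 without any 1 array other than 24 h replicate 1. In bulk tissue, fewer cells of a type and less RNA per cell cannot be told apart, here and for the cell types below.

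Neuronal genes were more often lower than higher in most lists, in some with a share of falls near the 13.4% of all genes. Of 31 pan-neuronal and synaptic genes, 0 rose, 8 fell (25.8%) and 23 did not pass, with a median of -0.12. Without 24 h replicate 2 the median was 0.01 and 2 rose and 4 fell. Nefh, the heavy neurofilament of large axons, read 8.52, 8.40, 8.32 and 8.77 at 2 h and 7.56, 7.39, 7.69 and 7.61 at 24 h (-0.94 ± 0.19, adjusted p = 0.000564). Nrgn, a postsynaptic calmodulin-binding protein, read 12.26 to 12.52 at 2 h and 11.15 to 11.88 at 24 h (-0.91 ± 0.21, adjusted p = 0.00263). Neither pair of groups overlapped. Of 22 cortical projection neuron genes, 0 rose and 4 fell (18.2%), namely Cux1, Cux2, Neurod2 and Nr4a2, all transcription factors. Cux2, a marker of upper cortical layers, read 7.90 to 8.01 at 2 h and 6.94 to 7.44 at 24 h (-0.79 ± 0.15, adjusted p = 0.000454). Slc17a7, the vesicular glutamate transporter that defines excitatory cortical neurons, was not called (-0.43 ± 0.24, adjusted p = 0.194). Syt1, the calcium sensor of transmitter release and a defining neuronal marker, fell by 0.36 (adjusted p = 0.00787, and 0.0534 without 24 h replicate 2), and the probe for Snap25, a synaptic fusion protein, was detected on 0 of 32 arrays.

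Of 32 voltage-gated channel genes, 1 rose, 6 fell (18.8%, against 13.4% of all genes) and 25 did not pass. The falls numbered 10 without 24 h replicate 1 and 3 without replicate 2. Cacnb3, a calcium channel subunit, fell from 10.11 to 10.36 at 2 h to 9.29 to 9.74 at 24 h (-0.75 ± 0.12, adjusted p = 8.1e-05), and its 3 other probes gave -0.52 to -0.66 (adjusted p 0.00469 to 0.041). Of 14 interneuron genes, 1 rose and 1 fell (7.14% each), shares below those of all genes. Dlx2, a developmental transcription factor, fell by 0.67 ± 0.18 (adjusted p = 0.00733) to a level detected on 1 array. Htr3a, a serotonin-gated channel of interneurons, was called higher (0.50 ± 0.18, adjusted p = 0.0425), but 1 of 4 arrays at 2 h detected it and the call was lost without any 1 of 6 arrays (adjusted p 0.0549 to 0.171). Gad1, which makes GABA, was not called (-0.10, adjusted p = 0.542).

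Genes typical of striatal projection neurons were measured in these cortex samples too, as a check on the dissection. Of 18 tested, 0 rose, 6 fell (33.3%) and 12 did not pass, with a median of -0.58 and same-numbered pairs at 0.20, -1.16, -0.52 and -0.78. The count was 8 without 24 h replicate 1 and 2 without replicate 2 or 4. Syndig1l, a transmembrane protein enriched in striatum, read 7.70, 7.97, 7.82 and 7.14 at 2 h and 7.35, 5.82, 6.15 and 5.83 at 24 h (-1.37 ± 0.28, adjusted p = 0.000723), and replicate 1 overlapped the 2 h arrays. Drd1 and Ppp1r1b, which define these neurons, were detected on all 8 arrays and not called (-0.84, adjusted p = 0.161, and 0.09, 0.884), and Adora2a was detected on 0. Drd2, the dopamine receptor of the indirect pathway, also defines them and fell (-0.80, adjusted p = 0.0262), a call lost without any 1 of 2 h replicate 2 and 24 h replicates 2, 3 and 4 (up to 0.103). How much striatum each cortex sample held was not tested. Hypothalamic markers gave 1 call in 13, Cartpt, a neuropeptide that cortex also makes (-0.92 ± 0.27, adjusted p = 0.0139, lost without 2 h replicate 1 or 24 h replicate 4 at 0.0532 and 0.0974), and Pmch and Hcrt were detected on 0 of the 8 arrays. Oxt and Avp, the oxytocin and vasopressin genes, were each detected on 1 array at 2 h and 0 at 24 h, with Oxt at 4.89 to 8.00 at 2 h, and were not called (adjusted p = 0.645 and 0.524). Choroid plexus markers gave 0 calls in 13, yet Ttr, a choroid plexus transport protein, ran from 6.86 to 13.73 at 24 h and from 10.39 to 13.70 at 2 h.

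Homeostatic astrocyte genes were lower in part. Of 23 tested, 2 rose, 8 fell (34.8%) and 13 did not pass, with a median of -0.16 and pairs from -0.29 to -0.14. Acsl3, a fatty acid activating enzyme, read 10.94, 11.03, 10.93 and 10.72 at 2 h and 10.37, 9.84, 10.12 and 10.01 at 24 h (-0.82 ± 0.13, adjusted p = 4.18e-05), while a second probe gave -0.42 and did not pass (0.115). Atp1b2, a subunit of the sodium pump, fell by 0.60 ± 0.17 (adjusted p = 0.00873) with groups that did not overlap. Sox9 and Aldh1l1 were the members that rose, the latter a call lost without any 1 of 6 arrays (adjusted p up to 0.149), and the falls numbered 4 or 5 without 2 h replicate 2 or 24 h replicates 3 or 4. Aqp4 and Slc1a2, a water channel and a glutamate transporter that define astrocytes, were not called (-0.15, adjusted p = 0.476, and -0.09, 0.61). Gja1, the gap junction protein that also defines them, fell by 0.24 (adjusted p = 0.0411), a call lost without any 1 of 6 arrays (up to 0.128). Of 20 myelin genes, 1 rose (5.0%) and 6 fell (30.0%), against 13.2% and 13.4% of all genes. The rises numbered 3 without 24 h replicate 1, 2 without 2 h replicate 2 and 0 without any 1 of 2 h replicates 3 and 4 and 24 h replicates 2 and 4. Ugt8a, an enzyme of myelin lipid synthesis, read 9.37, 9.67, 9.33 and 9.16 at 2 h and 8.31, 7.89, 8.53 and 8.40 at 24 h, a 2.14-fold fall (-1.10 ± 0.15, adjusted p = 8.58e-06). Sox8, a factor of the oligodendrocyte lineage, was the 1 member of 10 precursor genes to fall (-0.69 ± 0.13, adjusted p = 0.000342).

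Reactive astrocyte genes made up the list with the highest share of rises. Of 22 tested, 17 rose (77.3%), 0 fell and 5 did not pass, with a median of 1.07. Same-numbered pairs gave medians of -0.06, 2.30, 0.83 and 1.66, and 20 rose without 24 h replicate 1. Only 9 or 10 passed without any 1 of 2 h replicates 1 and 2 and 24 h replicates 2 and 4, and 8 among genes detected on all 4 arrays of a group. Serpina3n, a protease inhibitor released by reactive astrocytes, read 8.10, 8.47, 8.85 and 8.80 at 2 h and 9.71, 12.48, 11.88 and 11.83 at 24 h, a 7.56-fold rise (2.92 ± 0.39, adjusted p = 8.58e-06). All 4 arrays at 24 h stood above every array at 2 h and in sham, where it read 8.22 to 8.45. Vim, an intermediate filament of reactive glia and vessels, read 7.74, 7.68, 7.79 and 7.61 at 2 h and 7.92, 10.02, 9.30 and 9.66 at 24 h (1.52 ± 0.33, adjusted p = 0.00128). Gfap, the intermediate filament that defines astrocytes, read 8.14, 8.26, 8.37 and 8.13 at 2 h and 8.34, 9.92, 9.74 and 9.62 at 24 h (1.18 ± 0.27, adjusted p = 0.00217), and its replicate 1 lay inside the 2 h range.

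Lcn2, which binds iron carriers and is made by reactive astrocytes and neutrophils, read 8.07, 7.36, 8.41 and 8.31 at 2 h and 8.07, 11.42, 10.12 and 10.81 at 24 h, a 4.18-fold rise (2.06 ± 0.50, adjusted p = 0.00329). Ptx3, a pentraxin of innate immunity, was detected on 0 arrays at 2 h and 3 at 24 h, and rose at least 3.10-fold (adjusted p = 0.000441). Its second probe gave 2.47 (adjusted p = 0.000704). Osmr, a receptor for oncostatin M, read 6.41, 6.02, 6.80 and 7.08 at 2 h and 6.24, 8.45, 7.85 and 8.15 at 24 h (1.10 ± 0.38, adjusted p = 0.0333), a call lost without any 1 of 2 h replicates 1 and 2 and 24 h replicates 2, 3 and 4 (adjusted p 0.0742 to 0.132). In each of these genes 24 h replicate 1 read within or near the 2 h range, and the other 3 arrays stood above it.

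Matrix and wound genes rose with them. Of 24 tested, 13 rose (54.2%), 1 fell and 10 did not pass, with a median of 0.74. With 1 array left out, 9 to 14 rose. Lgals3, a galectin of phagocytes and wounds, had the largest rise of all genes named by the rule. It read 6.03, 6.14, 6.60 and 6.24 at 2 h and 6.99, 10.93, 9.65 and 10.26 at 24 h, a 9.23-fold rise (3.21 ± 0.60, adjusted p = 0.000326), over sham arrays on which it was not detected. Spp1, osteopontin, a matrix protein and cytokine of activated macrophages, read 7.53, 7.13, 7.78 and 7.87 at 2 h and 8.05, 11.59, 11.19 and 10.49 at 24 h (2.75 ± 0.49, adjusted p = 0.000199). Tgfbi, a matrix protein induced by TGF-beta, read 6.23 to 6.81 at 2 h and 6.88, 9.45, 8.67 and 9.50 at 24 h (2.10 ± 0.39, adjusted p = 0.000325), and its second probe gave 1.66 (0.00268). Timp1, an inhibitor of matrix metalloproteinases, was already at 7.58, 7.13, 9.01 and 8.29 at 2 h, over 5.07 to 5.94 in sham, and reached 8.38, 11.19, 9.11 and 10.47 at 24 h (1.78 ± 0.45, adjusted p = 0.00483, and 0.0644 with the 8 arrays fitted alone), where the groups still overlapped. Tgm1, a transglutaminase that crosslinks proteins, was detected on 0 arrays at 2 h and read 5.27, 8.15, 7.73 and 8.16 at 24 h, at least 3.10-fold higher (adjusted p = 3.24e-05).

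**Figure D2:**
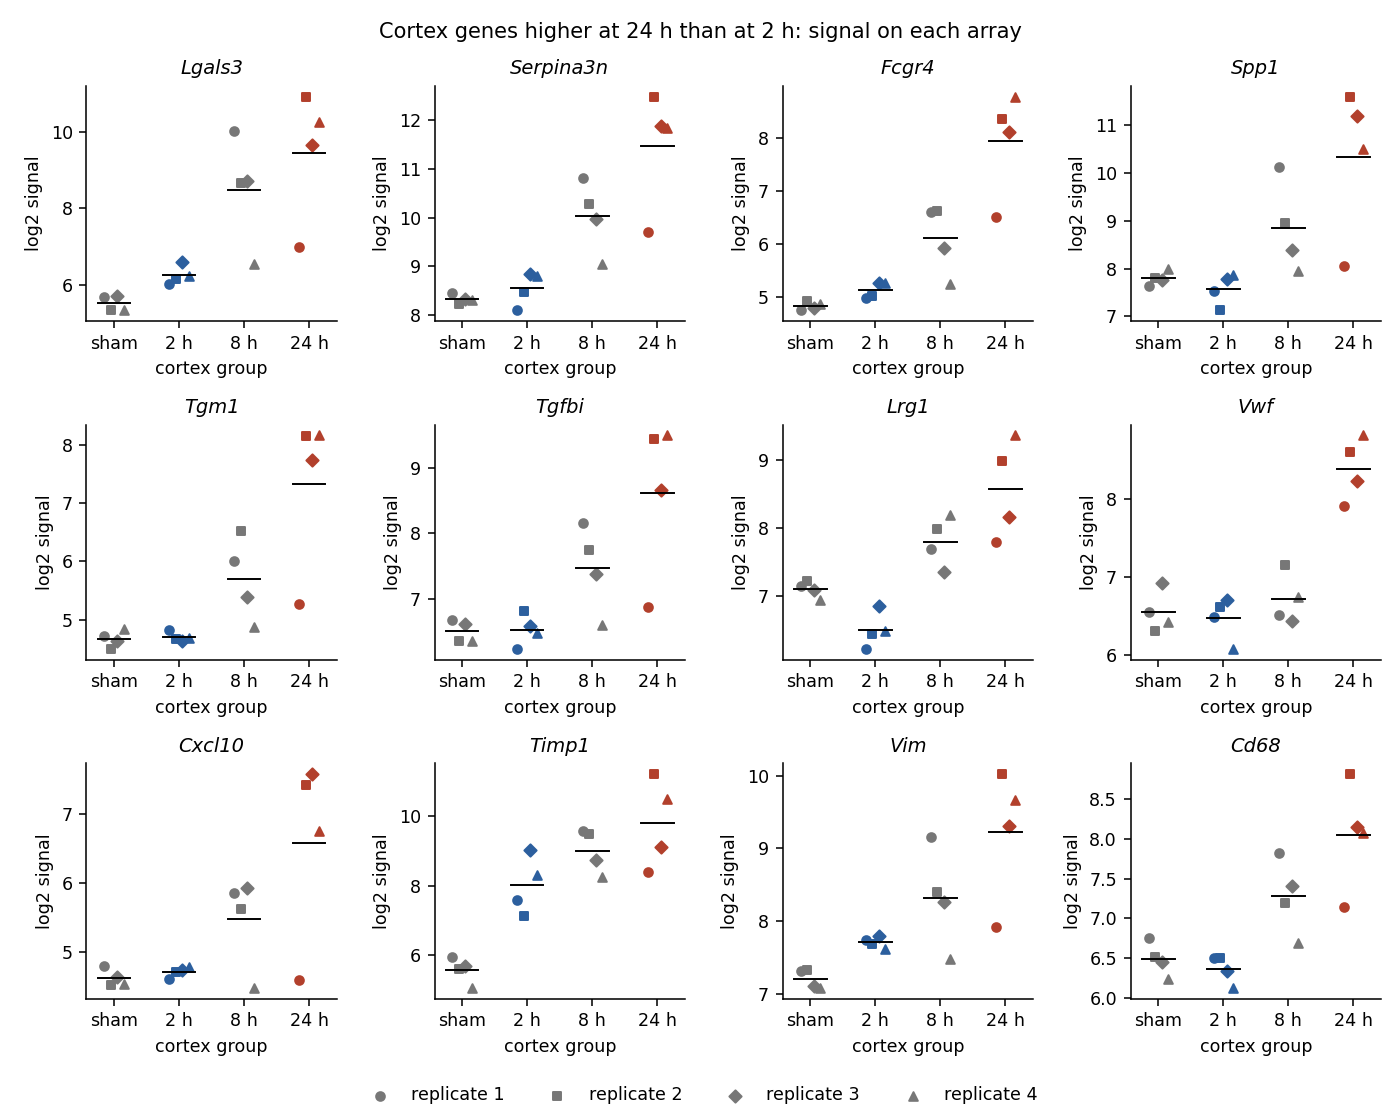
Log2 signal on each cortex array (vertical axis) of 12 genes higher at 24 h, by group (horizontal axis: sham and 2, 8 and 24 h of reperfusion), with the replicate number as the marker shape, 2 h in blue, 24 h in red, the other groups in grey and bars at group means. In most panels 24 h replicate 1 (circle) and 8 h replicate 4 (triangle) lie near the sham and 2 h arrays, while Vwf reads 7.92 to 8.82 on all 4 arrays at 24 h.

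Genes of monocytes, macrophages and phagocytes built up. Of 20 monocyte and macrophage markers, 15 rose and 0 fell, the other 5 not passing, at a median of 0.97, with all 4 pairs above 0 (0.26, 1.37, 0.70 and 1.77). With 1 array left out, 10 to 16 rose. Fcgr4, a receptor through which myeloid cells bind antibody, was detected on 0 arrays at 2 h and read 6.50, 8.35, 8.11 and 8.78 at 24 h, at least 4.22-fold higher (adjusted p = 1.72e-06). Cd68, a lysosomal protein of phagocytes, read 6.51, 6.50, 6.34 and 6.13 at 2 h and 7.15, 8.81, 8.15 and 8.07 at 24 h (1.68 ± 0.29, adjusted p = 0.000145), and the groups did not overlap. The defining markers were mixed. Ccr2 and Ms4a7 were detected on 0 cortex arrays, and Lyz2, which microglia make too, differed by 0.80 and was not called (adjusted p = 0.051). The mean level of the 20 markers was 6.11 to 6.31 in sham, 6.20 to 6.49 at 2 h and 6.53 to 8.26 at 24 h.

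Of 23 genes of phagocyte activation and lysosomes, 12 rose (52.2%), 1 fell and 10 did not pass, with 5 rises without 24 h replicate 2 and 7 without replicate 3 or 4. Ctsc, a lysosomal protease, read 6.93 to 7.36 at 2 h and 7.81, 8.88, 8.75 and 8.93 at 24 h (1.41 ± 0.20, adjusted p = 1.6e-05), and its other probes gave 1.27 and 0.94 and passed as well. Gpr84, a fatty acid receptor of activated myeloid cells, rose at least 2.42-fold from a level detected on 0 arrays (adjusted p = 0.00334). Of 21 neutrophil genes on the array 10 were tested, with 3 rises (30.0%), 0 falls and pairs at 0.17, 2.16, -0.44 and 2.63. The rises numbered 5 without 24 h replicate 1 or 3, and 2 at the lowest with 1 array left out. The members called were Lcn2, Mmp9, a gelatinase, and Fpr2, a receptor for formyl peptides (at least 1.84-fold, adjusted p = 0.0202, lost without 2 h replicate 1 or 24 h replicates 2 or 4 at 0.0582, 0.0922 and 0.145). S100a8 and S100a9, which form calprotectin and fill neutrophils, were not called. S100a8 read 7.35, 9.16, 9.57 and 8.29 at 2 h and 6.04, 12.15, 7.65 and 11.58 at 24 h (0.76 ± 0.92, adjusted p = 0.578), so 2 arrays at 24 h stood above and 2 within or below the 2 h arrays. Of the neutrophil granule genes, Camp was detected on 0 of the 8 arrays and Ngp on 1.

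Complement and acute-phase genes were higher. Of 20 complement genes on the array 9 were tested. Of the 9, 6 rose (66.7%) and 0 fell, 3 without any 1 of 2 h replicate 1 and 24 h replicates 2, 3 and 4. C4b, a component of the classical pathway, read 6.75 to 7.47 at 2 h and 7.68, 8.52, 8.38 and 8.31 at 24 h (1.08 ± 0.15, adjusted p = 1.7e-05). C3, the central component, was detected on 0 arrays at 2 h and 2 at 24 h and rose at least 1.30-fold (adjusted p = 0.00748, and 0.0829 with the 8 arrays fitted alone). Saa3, an acute-phase protein, rose at least 3.37-fold from a level detected on 0 arrays (adjusted p = 4.75e-05) and read 6.36, 8.64, 7.33 and 8.11 at 24 h. Of 15 antigen presentation genes, 3 rose and 0 fell, 6 without 24 h replicate 1. Tap2, a peptide transporter, rose from 6.58 to 6.89 at 2 h to 6.97 to 7.77 (0.83 ± 0.15, adjusted p = 0.000161), and H2-M3, a non-classical histocompatibility molecule, from 6.09 to 6.44 to 6.65 to 6.86 (0.60 ± 0.12, adjusted p = 0.000719). Psmb10, an immunoproteasome subunit, was the other (0.32, adjusted p = 0.03), a call lost without any 1 of 5 arrays (up to 0.114).

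Interferon-stimulated genes were higher at 24 h in 3 of the 4 pairs. Of 38 on the array 22 were tested, the others being detected on too few arrays. Of the 22, 12 rose (54.5%), 0 fell and 10 did not pass, with a median of 0.81 and pairs at -0.11, 0.90, 1.18 and 1.42. The count was 17 without 24 h replicate 1 and 7 without replicate 3 or 4. Cxcl10, a chemokine for T cells induced by interferons, was detected on 0 arrays at 2 h and read 4.60, 7.41, 7.57 and 6.75 at 24 h, at least 2.08-fold higher (adjusted p = 0.00473). Oasl2, an antiviral protein, rose at least 2.15-fold (adjusted p = 0.00195) and read 5.46, 6.57, 7.95 and 7.42. Ifitm2, a membrane protein that restricts viruses, was outside the rule for named genes and is given for its promoter, and read 8.15, 8.14, 8.40 and 8.55 at 2 h and 8.87, 10.48, 9.53 and 10.06 at 24 h (1.43, adjusted p = 3.9e-05).

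The promoters of Cxcl10 and Ifitm2 are shown because they hold the interferon-stimulated response element (ISRE), which the STAT and IRF factors of interferon signalling bind. They have the same window and source as those above, and capitals mark GAAA, any 2 bases and GAAA on either strand. The match starts 213 bases before the start in Cxcl10 and 46 bases before it in Ifitm2.
Cxcl10, chr5:92348840-92349139, minus strand: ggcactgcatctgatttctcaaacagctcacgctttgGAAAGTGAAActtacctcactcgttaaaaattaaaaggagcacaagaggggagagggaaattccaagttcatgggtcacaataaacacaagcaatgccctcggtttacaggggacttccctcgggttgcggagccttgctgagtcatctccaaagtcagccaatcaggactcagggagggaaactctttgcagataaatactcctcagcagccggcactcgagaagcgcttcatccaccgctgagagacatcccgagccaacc
Ifitm2, chr7:140955912-140956211, minus strand: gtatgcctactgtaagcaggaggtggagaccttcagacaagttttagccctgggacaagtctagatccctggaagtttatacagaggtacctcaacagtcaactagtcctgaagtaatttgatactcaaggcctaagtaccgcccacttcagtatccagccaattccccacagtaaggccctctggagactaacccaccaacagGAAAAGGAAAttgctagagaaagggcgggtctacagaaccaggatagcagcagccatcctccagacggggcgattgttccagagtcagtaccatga
An ISRE was present in 84.6% of the 13 interferon-stimulated genes tested with 1 promoter and in 6 of the 8 called, against 2.92% of all genes tested. Among genes higher by at least 2-fold the share was 15.3%, and among genes lower by at least 2-fold 2.86%.

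The AP-1 site TGANTCA, which Fos and Jun proteins bind, was in 22.0% of the 59 promoters of genes higher by at least 2-fold and in 8.57% of the 35 of genes lower by at least 2-fold, against 4.49% of all genes tested. Among all genes called it was in 6.98% of those higher and 3.93% of those lower. It was also in 7 of the 13 promoters of interferon-stimulated genes tested and 0 of the 20 of immediate early genes. The whole CRE palindrome was in 0 of the 59. Mmp3, a metalloproteinase detected on 0 arrays at 2 h, rose at least 3.10-fold (adjusted p = 0.00117) and read 4.53, 9.38, 6.72 and 7.93 at 24 h. Its promoter and that of Cd68 are shown as examples of genes higher by at least 2-fold with an AP-1 site, which is in capitals.
Mmp3, chr9:7445572-7445871, plus strand: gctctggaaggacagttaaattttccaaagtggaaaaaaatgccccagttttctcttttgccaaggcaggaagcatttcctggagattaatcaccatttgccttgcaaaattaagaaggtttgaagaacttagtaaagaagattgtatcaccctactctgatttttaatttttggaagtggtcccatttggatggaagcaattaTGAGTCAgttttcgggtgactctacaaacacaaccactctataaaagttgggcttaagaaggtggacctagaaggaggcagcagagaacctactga
Cd68, chr11:69666121-69666420, minus strand: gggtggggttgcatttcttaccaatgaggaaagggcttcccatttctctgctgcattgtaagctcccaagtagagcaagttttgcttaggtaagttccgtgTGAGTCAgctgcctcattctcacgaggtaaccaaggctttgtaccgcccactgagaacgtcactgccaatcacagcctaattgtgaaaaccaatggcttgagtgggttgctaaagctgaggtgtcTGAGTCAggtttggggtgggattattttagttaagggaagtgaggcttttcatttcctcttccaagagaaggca
The matches start 46 bases before the start in Mmp3 and 149 and 24 bases before it in Cd68. The other motifs searched on both strands were the CArG box and the NF-kB site, by name, the heat shock element GAANNTTC, the STAT palindrome TTCNNNGAA and the E-box CACGTG. The CArG box, NF-kB site, heat shock element, STAT palindrome and E-box were in 3.39%, 20.3%, 6.78%, 13.6% and 8.47% of the promoters higher by at least 2-fold, against 1.36%, 9.81%, 5.70%, 6.62% and 10.3% of all. Of the 35 promoters of genes lower by at least 2-fold, 0, 7, 2, 2 and 1 held them. No test was run on any share.

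Cytokines and chemokines moved in different ways. Of 22 tested, 7 rose (31.8%), 2 fell and 13 did not pass, with a median of 0.46 that was -0.23 among genes detected on all 4 arrays of a group, when 2 rose. The rises numbered 11 without 24 h replicate 1, 3 without replicate 2 and 4 without replicate 4. Ccl12, a monocyte chemoattractant, read 6.66, 6.77, 6.77 and 8.13 at 2 h and 6.80, 9.76, 10.81 and 10.90 at 24 h, a 5.60-fold rise (2.49 ± 0.65, adjusted p = 0.00573, and 0.0567 with the 8 arrays fitted alone). The chemokines Ccl3 and Ccl4, which attract monocytes and lymphocytes, were not called. Ccl4 read 9.77, 9.17, 10.02 and 8.45 at 2 h and 5.57, 9.26, 9.89 and 8.77 at 24 h (-0.98 ± 1.11, adjusted p = 0.553), over sham arrays that did not detect it, so 3 of the 4 arrays at 24 h kept the 2 h range. Cxcl1, a neutrophil chemoattractant, read 7.49 to 8.70 at 2 h and 4.79, 10.45, 7.23 and 9.05 at 24 h (-0.12 ± 0.84, adjusted p = 0.94). Ccl2 did not pass (0.82 ± 0.55, adjusted p = 0.288) but did without 24 h replicate 1 (1.45, adjusted p = 0.0325). Il1b, a fever-inducing cytokine, was detected on 2 arrays of each group (0.16 ± 0.48, adjusted p = 0.848), and Tnf and Il6 were detected on 0 and 2 of 32 arrays and not tested.

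Of 14 regulators of NF-kB and of innate immune signals, 1 rose and 1 fell, 7.14% each against 13.2% and 13.4% of all genes. They were Myd88, the adaptor of Toll-like receptors (0.94 ± 0.23, adjusted p = 0.00382, and 0.0605 with the 8 arrays fitted alone), and Tnip1, an inhibitor of NF-kB (-0.35 ± 0.10, adjusted p = 0.00907, but 0.04 and 0.891 on its second probe). Socs3, which blocks gp130 and STAT3 signalling, read 8.65, 8.40, 8.68 and 8.75 at 2 h and 6.62, 10.25, 9.06 and 9.92 at 24 h. The 24 h arrays lay on both sides of the 2 h arrays, and the difference did not pass (0.34 ± 0.53, adjusted p = 0.679) except without 24 h replicate 1 (1.12, adjusted p = 0.0481). Of the 8 gp130 and STAT3 genes, Osmr and Stat3 rose and Junb fell, and 0 rose without 24 h replicate 2 or 4.

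Blood vessel genes were higher. Of 12 genes of endothelial activation and adhesion, 5 rose (41.7%, and 3 without 24 h replicate 2) and 0 fell, and of 21 endothelial and blood-brain barrier genes, 8 rose (38.1%), 2 fell (1 without any 1 of 2 h replicate 1 and 24 h replicates 2 and 4) and 11 did not pass. Vwf, von Willebrand factor, which captures platelets, read 6.49, 6.62, 6.71 and 6.08 at 2 h and 7.92, 8.61, 8.23 and 8.82 at 24 h, a 3.78-fold rise (1.92 ± 0.20, adjusted p = 3.62e-07). It was high on 24 h replicate 1 too. Lrg1, a glycoprotein that promotes vessel growth, read 6.22, 6.44, 6.86 and 6.49 at 2 h and 7.80, 8.99, 8.17 and 9.37 at 24 h (2.08 ± 0.29, adjusted p = 1.55e-05), and its sham arrays of 6.94 to 7.22 all lay above those at 2 h. Cldn5, the tight junction protein of brain endothelium, read 8.75, 9.24, 8.83 and 7.96 at 2 h and 9.18, 10.72, 9.59 and 10.34 at 24 h (1.27 ± 0.25, adjusted p = 0.000559). The endothelial marker Pecam1 was 0.67 higher (adjusted p = 0.0448), a call lost without any 1 array other than 24 h replicate 1 (up to 0.182). Of 19 pericyte and meningeal markers, Mgp, an inhibitor of calcification, rose (0.67 ± 0.20, adjusted p = 0.0149, lost without 2 h replicate 1 or 2 or 24 h replicate 4 at 0.0508, 0.051 and 0.0763), and Vtn, a plasma and pericyte protein, and Col1a1, a collagen detected on 0 arrays at 24 h, fell, while 4 rose without 24 h replicate 1. The call of Col1a1 (adjusted p = 0.0488) was lost without any 1 of 7 arrays (up to 0.254). Haemoglobin and red cell markers gave 0 calls in 4, with Hba-a1 at 11.29 to 13.67 at 2 h, 8.10 to 13.71 at 24 h and 7.29 to 8.83 in sham, so the blood content of the samples varied within each group and its part in the results was not tested.

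Of 26 NRF2 targets and redox genes, 8 rose (30.8%), 0 fell and 18 did not pass, with a median of 0.23 and pairs from 0.03 to 0.48, and 4 rose without 2 h replicate 4 or 24 h replicate 2. Hmox1, which degrades heme, read 5.22, 6.38, 7.15 and 6.40 at 2 h and 5.72, 8.88, 8.34 and 8.36 at 24 h (1.54 ± 0.56, adjusted p = 0.0416), a call lost without any 1 of 2 h replicates 1, 2 and 4 and 24 h replicates 2, 3 and 4 (adjusted p 0.0625 to 0.154). Nqo1, a quinone reductase, was detected on 0 arrays at 2 h and all 4 at 24 h, at least 1.24-fold higher (adjusted p = 0.000258). Of 30 proteasome subunits, 15 rose, 1 fell and 14 did not pass, by small amounts, with a median of 0.25 and pairs from 0.08 to 0.40. The exception was Psme3, the nuclear proteasome activator, which read 10.46, 10.42, 10.28 and 9.99 at 2 h and 9.70, 9.50, 9.42 and 8.93 at 24 h (-0.90 ± 0.15, adjusted p = 8.62e-05), whereas Psme2, the interferon-induced activator subunit, rose by 0.57 ± 0.12 (adjusted p = 0.00134). Of 49 ribosomal proteins 8 rose (16.3%, against 13.2% of all genes) and 0 fell. These rises numbered 16 without 24 h replicate 1, 5 without 2 h replicate 3 and 2 to 4 without any 1 of 2 h replicate 1 and 24 h replicates 2, 3 and 4. Of 40 respiratory chain subunits 5 rose (12.5%) and 1 fell (2.5%). The rises numbered 1 to 3 without any 1 array other than 2 h replicate 4 and 24 h replicate 1, and the fall was lost without any 1 of 6 arrays. Cell cycle genes gave 2 rises (14.3%) and 1 fall (7.14%) in 14, with 4 rises without 24 h replicate 1, 1 without replicate 4, and the fall lost without any 1 of 4 arrays. Among 20 p53 targets and apoptosis genes 2 rose (10.0%) and 3 fell (15.0%), with 4 rises without 24 h replicate 1, 1 without any 1 of 2 h replicate 1 and 24 h replicates 2 and 4, and 1 fall without 24 h replicate 3.

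**Figure D3:**
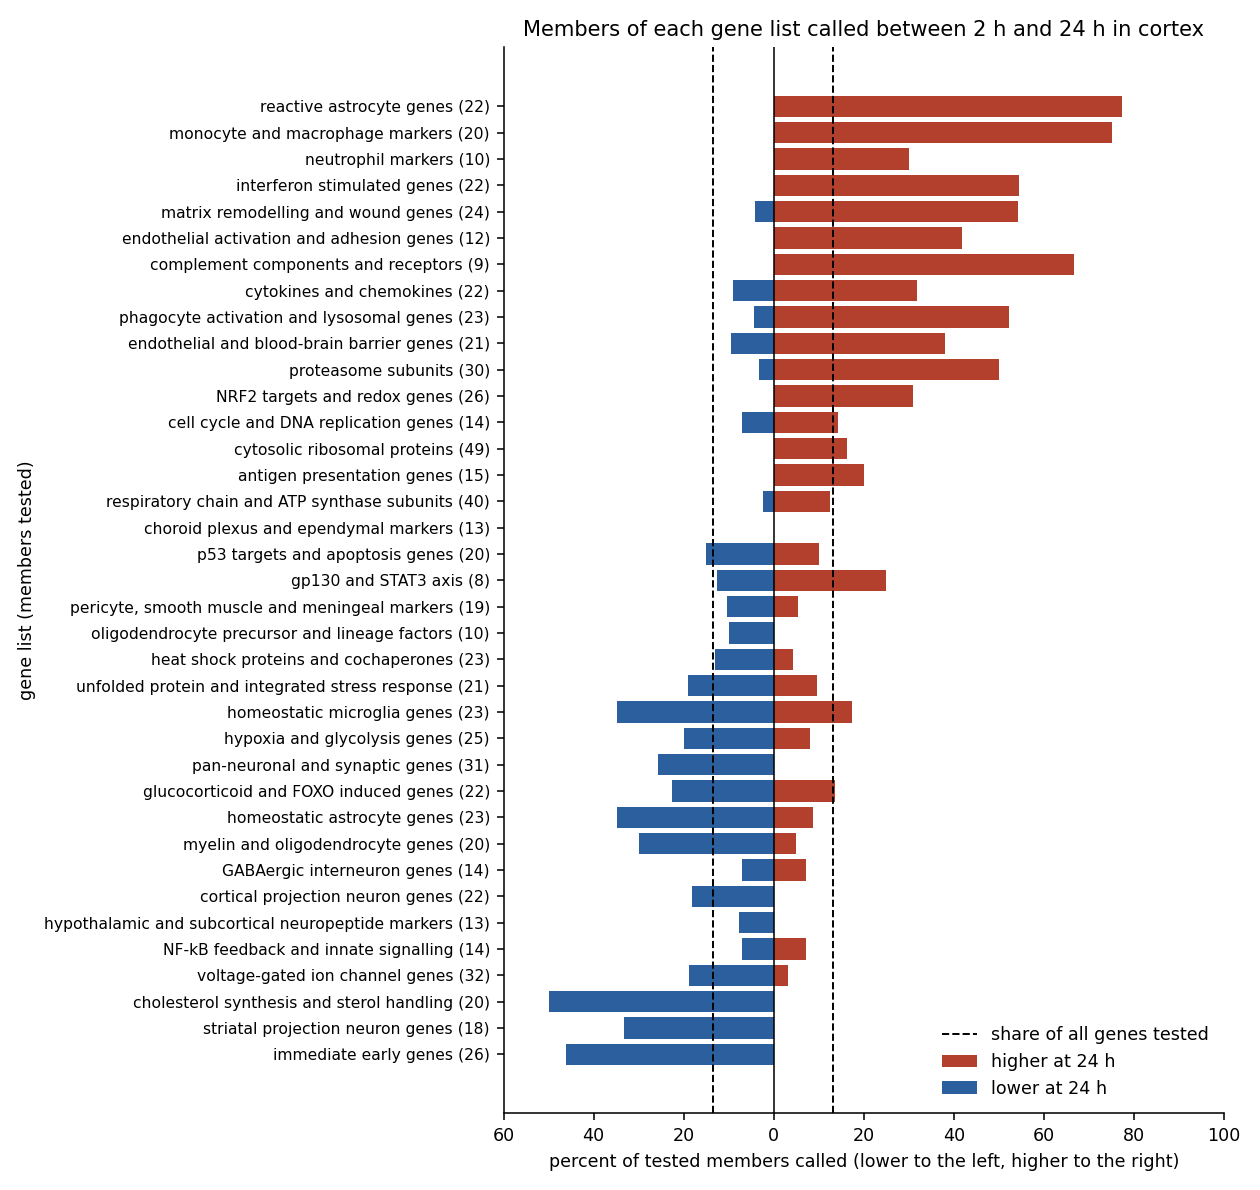
Percent of the tested members of each gene list (rows, with the number tested) called higher at 24 h (right, red) or lower (left, blue) in cortex, ordered by the list's median difference, with dashed lines at the share of all genes tested (13.2% and 13.4%). Reactive astrocyte genes reach 77.3% higher, immediate early genes 46.2% lower and cholesterol synthesis slightly more, and lists under 8 members are left out.

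The 4 pairs of same-numbered arrays did not show the late rise to the same extent. For reactive astrocyte, interferon-stimulated, endothelial activation and cytokine genes, replicate 1 gave medians of -0.06, -0.11, -0.13 and -0.38, where replicate 2 gave 2.30, 0.90, 1.04 and 1.54. Immediate early and cholesterol genes had their most negative medians, -1.13 and -0.69, in that same pair. Without 24 h replicate 1, but with 2 h replicate 1 kept, the medians were 1.56 for reactive astrocyte, 1.27 for interferon-stimulated and -0.66 for immediate early genes.

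**Figure D4:**
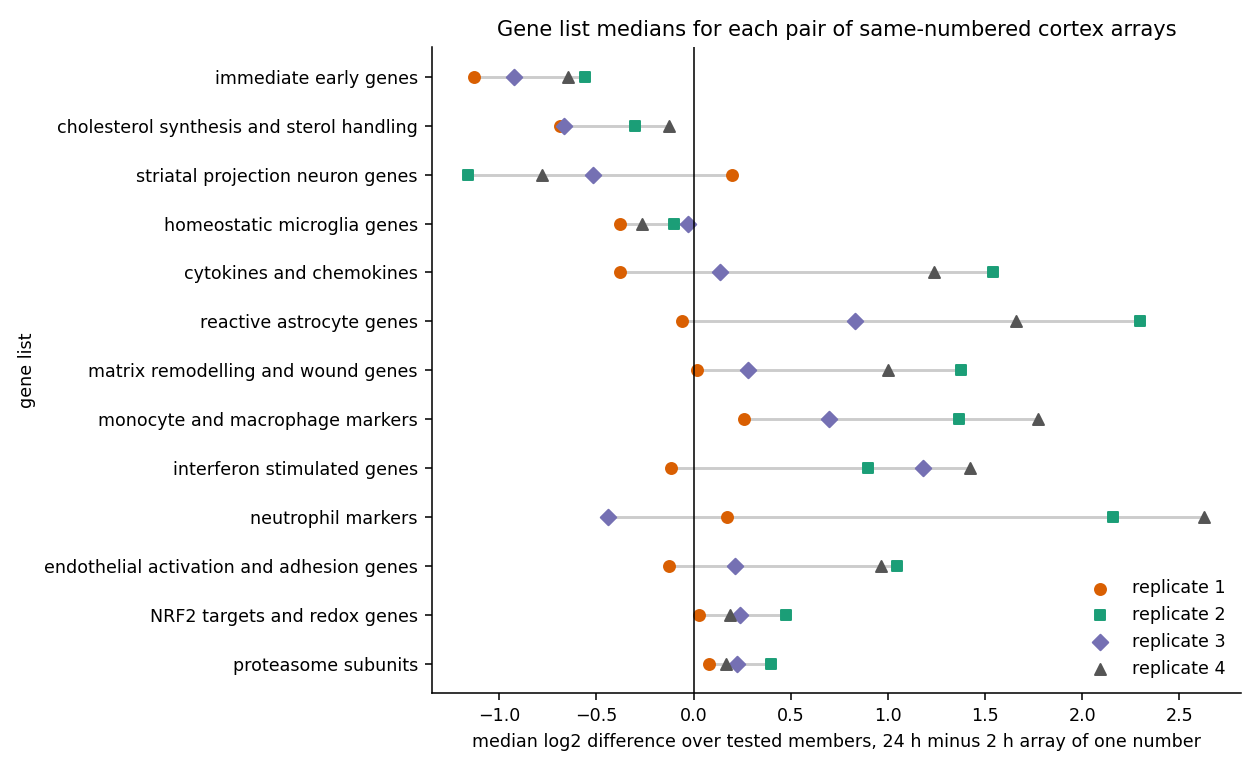
Median log2 difference, 24 h minus 2 h (horizontal axis), over the tested members of 13 gene lists (rows) for each of the 4 pairs of same-numbered cortex arrays, marked by shape and colour, with grey lines from the lowest to the highest pair. Replicate 1 lies near 0 for the late lists, from -0.38 for cytokines to 0.26 for monocyte and macrophage markers, and at the low end for immediate early and cholesterol genes.

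The same contrast in striatum came from other arrays. The labels do not say whether cortex and striatum came from the same mice, so the striatal result is not shown to be an independent repeat. There 1222 genes were called (12.9%), 666 higher (7.03%) and 556 lower (5.87%), and 170 and 14 passed by at least 2-fold. Of the 102 genes higher by at least 2-fold in cortex, 89 (87.3%) were called higher in striatum, and the median difference over the 102 was 1.37 in cortex and 1.54 in striatum. Of the 64 lower by at least 2-fold, 23 (35.9%) were called lower in striatum, and the medians were -1.15 and -0.48. Both sets were chosen for their size in cortex and not in striatum, so the medians of the regions are not on equal terms. Why they differed was not tested. At any size, 439 genes were called higher in both regions, 35.2% of those in cortex and 65.9% of those in striatum, and 337 lower in both, 26.5% and 60.6%.

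A test of the difference between regions called 8 genes (0.0844%), with 1098 at an unadjusted p under 0.05. That test treated cortex and striatum arrays as separate samples, which the labels do not state. Ddc, which makes dopamine and serotonin from their precursors, rose in cortex from 6.21 to 6.75 at 2 h to 7.77 to 8.55 at 24 h (1.65 ± 0.19, adjusted p = 1.88e-06) but differed by 0.12 (adjusted p = 0.74) in striatum, a regional difference of 1.54 (adjusted p = 0.012). The cortex sham arrays of Ddc read 7.04 to 7.41, all above those at 2 h and below those at 24 h. Mapk11, a stress-activated kinase, fell from 8.79 to 8.98 down to 7.94 to 8.14 in cortex (-0.87 ± 0.10, adjusted p = 2.32e-06) and differed by -0.16 in striatum (regional difference -0.71, adjusted p = 0.045). Prag1, a regulator of cell shape, fell in cortex (-0.59 ± 0.11, adjusted p = 0.000342) and had the opposite sign in striatum (0.28), where it was not called. Tom1, an endosomal adaptor, rose in cortex (0.55 ± 0.11) and fell in striatum (-0.35, adjusted p = 0.026), as did Mdh1b, a malate dehydrogenase relative detected on 1 array at 2 h (0.77 ± 0.14, and -0.45, 0.041). Ucn, the neuropeptide urocortin, was detected on 0 cortex arrays, and its regional difference of 2.00 came from a fall of 1.99 in striatum. Ing3 and Rab5a were the other members of the 8. The regional difference passed for neither Fosb (-1.62, adjusted p = 0.34) nor Glp2r, a peptide hormone receptor that rose in cortex (1.74 ± 0.23, adjusted p = 8.58e-06) and had a striatal difference of 0.65 (0.062). The cortex sham arrays of Glp2r read 6.46 to 6.96, also between those at 2 h (5.47 to 6.01) and 24 h (7.25 to 7.56).

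**Figure D5:**
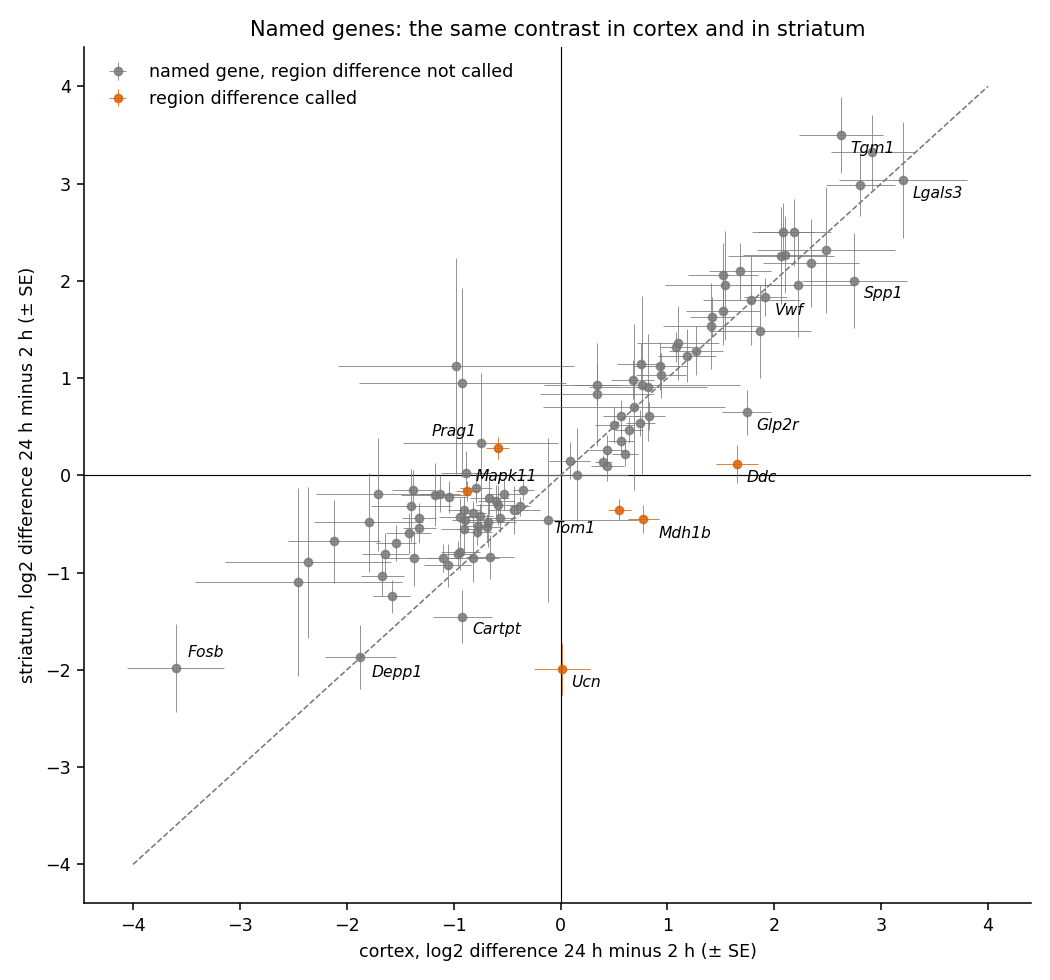
Log2 difference, 24 h minus 2 h, in cortex (horizontal axis) and striatum (vertical axis) for the 104 named genes, with SE bars in both directions and a dashed line of equality. Late genes such as Lgals3 and Vwf lie along the line, Fosb lies above it, and the orange points are the named genes whose regional difference passed.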

How the data were processed

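Right cortex and striatum of Gpx1-/- mice were measured on 32 Illumina arrays, 4 per group in 8 groups of region and time, and 8 of them carry the comparison described. The probe intensities were exported by the authors from BeadStudio without normalization, per the file headers. Each comes with a detection value exported by the authors from BeadStudio as 1 minus its detection p-value, deposited as a fraction between 0 and 1. Detection p-values used here are 1 minus those deposited values. The authors' processed table holds linear ratios, found by comparing the deposited values with the intensities, and served as an alternative. In it the 4 cortex sham arrays average 1 for every probe, and the striatal sham arrays were not checked for this. In that table and in the raw table of the whole series the replicate numbers run in reverse order within a group, which leaves groups unaffected. How the ratios were normalized is not given in the sources used here. Array number limits the precision, and detection limits low levels.

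Intensities were background-corrected and quantile-normalized with neqc (limma 3.58.1, R 4.3.3, offset 16) over 32 arrays. The filter kept 12758 probes, those detected at p under 0.01 on 4 or more arrays, and the probe with the highest mean stood for its gene (9475 genes). One 8-group limma model with 24 residual degrees of freedom gave contrasts, with Benjamini-Hochberg adjustment over all genes. Tests were checked on simulated data. Where 0 arrays of the dimmer group detected a gene, its change is a bound ("at least"), computed after raising each value to the lowest detected signal on its array. Promoters came from RefSeq (GRCm38.p6).

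Members and gene lists were chosen with earlier results of these data known. Named genes were the 12 highest and 12 lowest calls with groups that do not overlap, up to 2 called members of each list with the largest difference, the 4 largest region differences each way, and a set of early, inflammatory and cell-type genes named whatever their values. Other list members named, and the CRE core, were chosen after values were seen. The array code prefix, taken to be the slide, equals the replicate number and holds all 4 groups of a region. The place on the slide is the same for all arrays of a group, and these cannot be told apart. Alternatives covered the replicate block, scaling, background, the authors' values, detection filters, the arrays fitted, variance model, array weights, probe choice, leaving out each array, and a promoter window of 250 bases. One named gene is not reported here.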

Additional observations from a re-analysis of the deposited data

Results flagged for a closer look

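For 9 of 208 sets of 4 arrays, 1 array lay far from the other 3, by a gap to its nearest neighbour above Dixon's 95% critical share of the range, and chance gives about 1 in 20. Of these, 4 were on cortex 24 h replicate 1, the array that also stood apart in the principal components. It read 5.72 for Hmox1 (others 8.34 to 8.88), 5.27 for Tgm1 (7.73 to 8.16), 7.81 for Ctsc (8.75 to 8.93) and 7.29 for Psme2 (7.66 to 7.73). Without it limma's differences were 2.24, 3.31, 1.67 and 0.67. At 24 h, replicate 2 read 6.51 for Htr3a (others 5.89 to 5.99), and without it the difference of 0.36 was not called (adjusted p = 0.171 by limma). Replicate 4 at 24 h read 6.65 for H2-M3 (6.83 to 6.86) and 6.03 for Nqo1 (6.20 to 6.23). At 2 h, replicate 1 read 6.44 for H2-M3 (6.09 to 6.15) and replicate 4 read 8.13 for Ccl12 (6.66 to 6.77), where leaving it out gave 2.83 (adjusted p = 0.00427 by limma).

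The change from 2 h to 24 h differed between regions for 6 named genes by limma's interaction test. The cortical minus the striatal difference was 2.00 for Ucn, 1.54 for Ddc, 1.22 for Mdh1b, 0.90 for Tom1, -0.87 for Prag1 and -0.71 for Mapk11.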

How the results depend on the processing

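With no background correction 52 genes rose and 23 fell by at least 2-fold in cortex, against 65 and 21 on the authors' processed values, and 63 rose when detection on all 4 arrays of a group was required. With 8 arrays alone in the fit 779 genes were called higher, Hspa1a gained a call (adjusted p = 0.0202 by limma), and Ccl12, Timp1, Myd88, C3, Bid, Cartpt, Casp8, Fpr2, Hmox1, Htr3a, Npas4, Osmr, Pde10a, Rpl7a, Stmn1, Tnip1, Tyms and Uqcrb lost theirs (0.0533 to 0.152). The authors' values gave 1459 higher and 954 lower, 60.5% higher against 49.5%, with the median of all genes at 0.035. Leaving out 1 array gave 853 to 1396 higher and 881 to 1465 lower, and 68 to 198 and 45 to 104 by at least 2-fold, with the highest of each without 24 h replicate 1. In striatum, no background correction gave 92 and 6 by at least 2-fold, and the authors' values 1207 lower and 91 and 7 by at least 2-fold. Leaving out 1 array there gave 353 to 707 higher, 234 to 592 lower, and 103 to 206 and 13 to 19 by at least 2-fold. The difference between regions called 19 genes with the replicate block, 85 on the authors' values, 13 with no detection filter, 176 with array weights, and 7 to 15 with 1 array left out. The cause of these shifts was not tested. The replicate block gave 1322 higher and 1387 lower in cortex (100 and 65 by at least 2-fold). Same-numbered arrays had deviations that correlated at -0.1388 to 0.1834 over 4 pairs, and 2 of the 24 h arrays correlated best with their own number, so the numbers are not shown to pair samples. With the block Osmr lost its call (adjusted p = 0.053 by limma) and P2ry12 gained one (0.0286). Of 1962 values of named genes under alternatives, 103 fell short of a call made in the report, 16 gained one and 0 changed direction, and 67 of 89 called genes kept the call throughout. Of 741 list medians, 26 changed sign. Genes near background limit what low levels show.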

Other observations

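Of the 102 genes higher by at least 2-fold, 52 were in no list, and of the 64 lower, 45, and the genes named here were chosen from them after their values were seen. Rbm3, an RNA-binding protein induced by cold, read 10.54, 10.34, 10.27 and 10.67 at 2 h and 11.73, 12.08, 11.98 and 12.26 at 24 h (1.56 ± 0.11, adjusted p = 1.88e-10 by limma), and 1.40 higher in striatum. Apod, a lipid-binding apolipoprotein of glia, read 10.73, 11.01, 10.86 and 10.76 at 2 h and 11.91, 12.55, 12.51 and 12.70 at 24 h (1.58 ± 0.13, adjusted p = 4.9e-09 by limma), and 1.41 higher in striatum. In both genes every 24 h array, replicate 1 included, stood above every 2 h array. Msn, which links actin to the membrane, rose by 1.56 ± 0.28, and Tspo, a mitochondrial protein used to image activated glia, by 1.17 ± 0.23, and replicate 1 at 24 h was the lowest of its group for both, at 6.77 and 7.47.

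Vgf, Mt3, Gsk3a and Asic1 were among the genes outside the lists that fell. Vgf, a secreted neuropeptide precursor, read 11.16, 10.99, 10.71 and 11.02 at 2 h and 10.36, 10.09, 10.01 and 9.33 at 24 h (-1.02 ± 0.19, adjusted p = 0.000254 by limma). Mt3, a metallothionein of the brain, read 11.91, 12.08, 11.86 and 11.66 at 2 h and 11.13, 11.20, 10.76 and 10.22 at 24 h (-1.05 ± 0.23, adjusted p = 0.00148 by limma). The striatal differences were -0.17 and -0.03, and neither gene passed the test of the difference between regions. Gsk3a, a kinase of glycogen and Wnt signalling, and Asic1, an acid-sensing channel, fell by 1.15 ± 0.17 and 1.05 ± 0.16, with groups that did not overlap.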
